A study of Mus musculus with 40 samples.

Results

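The 8 genes described here encode 6 claudins (Cldn2, Cldn3, Cldn4, Cldn7, Cldn8 and Cldn15), occludin (Ocln) and the scaffold protein ZO-1 (Tjp1). They were taken as every probe of the array annotated with 1 of these symbols, which gave 11 of the 23978 probes that have a single gene symbol, and 8 of 16593 symbols. Cldn15 had 3 probes, Cldn8 had 2, and each of the other genes had 1. The study gave the probiotic mixture VSL#3 or its vehicle, phosphate-buffered saline (PBS), to healthy female mice of the inbred strains BALB/c and C57BL/6. The mice were 9 weeks old and specific-pathogen-free, and took 200 µl by gavage on 3 occasions a week over 4 weeks. Frozen colon and small intestine of the same 20 mice gave 40 arrays in 8 groups of 5: in each tissue, BALB/c mice on VSL#3, BALB/c mice on PBS, C57BL/6 mice on VSL#3 and C57BL/6 mice on PBS. BALB/c mice came from Janvier and C57BL/6 mice from Charles River, so strain and supplier cannot be told apart, and the labels do not say which stretch of the small intestine was taken.

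Tight junctions seal the space between neighbouring epithelial cells just below their apical surface. Claudins span the membrane and set what may pass between the cells: claudin-2 and claudin-15 form cation-selective pores, and claudin-3, claudin-4, claudin-7 and claudin-8 are usually counted with the sealing claudins. Occludin is a second kind of membrane protein of the junction, and ZO-1 is the cytoplasmic scaffold that ties claudins and occludin to actin. Strengthening of this barrier is among the effects usually claimed for VSL#3, a mixture of lactobacilli, bifidobacteria and a streptococcus.

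Between 46.3% and 52.6% of probes were detected on an array, and arrays of the same group correlated at 0.973 to 0.988 over probes. A probe is called detected where its detection p-value is under 0.05. Aqp8, Car4 and Slc26a3 were higher on every colon array than on every small intestine array, and Apoa4, Fabp6 and Sis were lower. H2-Ea was higher on every BALB/c array than on every C57BL/6 array of the same tissue, so tissue and strain follow the labels. All 21 probes of a list of epithelial markers were detected on every array. Pancreatic acinar markers had summed signals of 198544 and 159997 in mice 4 and 5 of the BALB/c VSL#3 colon group and of 167117 in mouse 3 of the C57BL/6 PBS colon group, against at most 64301 on the other colon arrays. Because whole tissue was measured, fewer cells of a type and less RNA per cell cannot be told apart in any value below.

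Signals are given as background-corrected, quantile-normalised log2 intensities, on which a step of 1 is a 2-fold difference. Levels of different probes are not compared, because each probe has its own response. Of the 11 probes, 9 were detected on all 20 arrays of both tissues, and these cover Cldn2, Cldn3, Cldn4, Cldn7, Cldn15, Ocln and Tjp1. Cldn8 differed by tissue: probe ILMN_2623145 was detected on 20 of 20 colon arrays and on 0 of 20 small intestine arrays. The second Cldn8 probe, ILMN_2681236, was detected on 5 colon arrays and 1 small intestine array, so it carried little signal in either tissue.

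**Figure D1:**
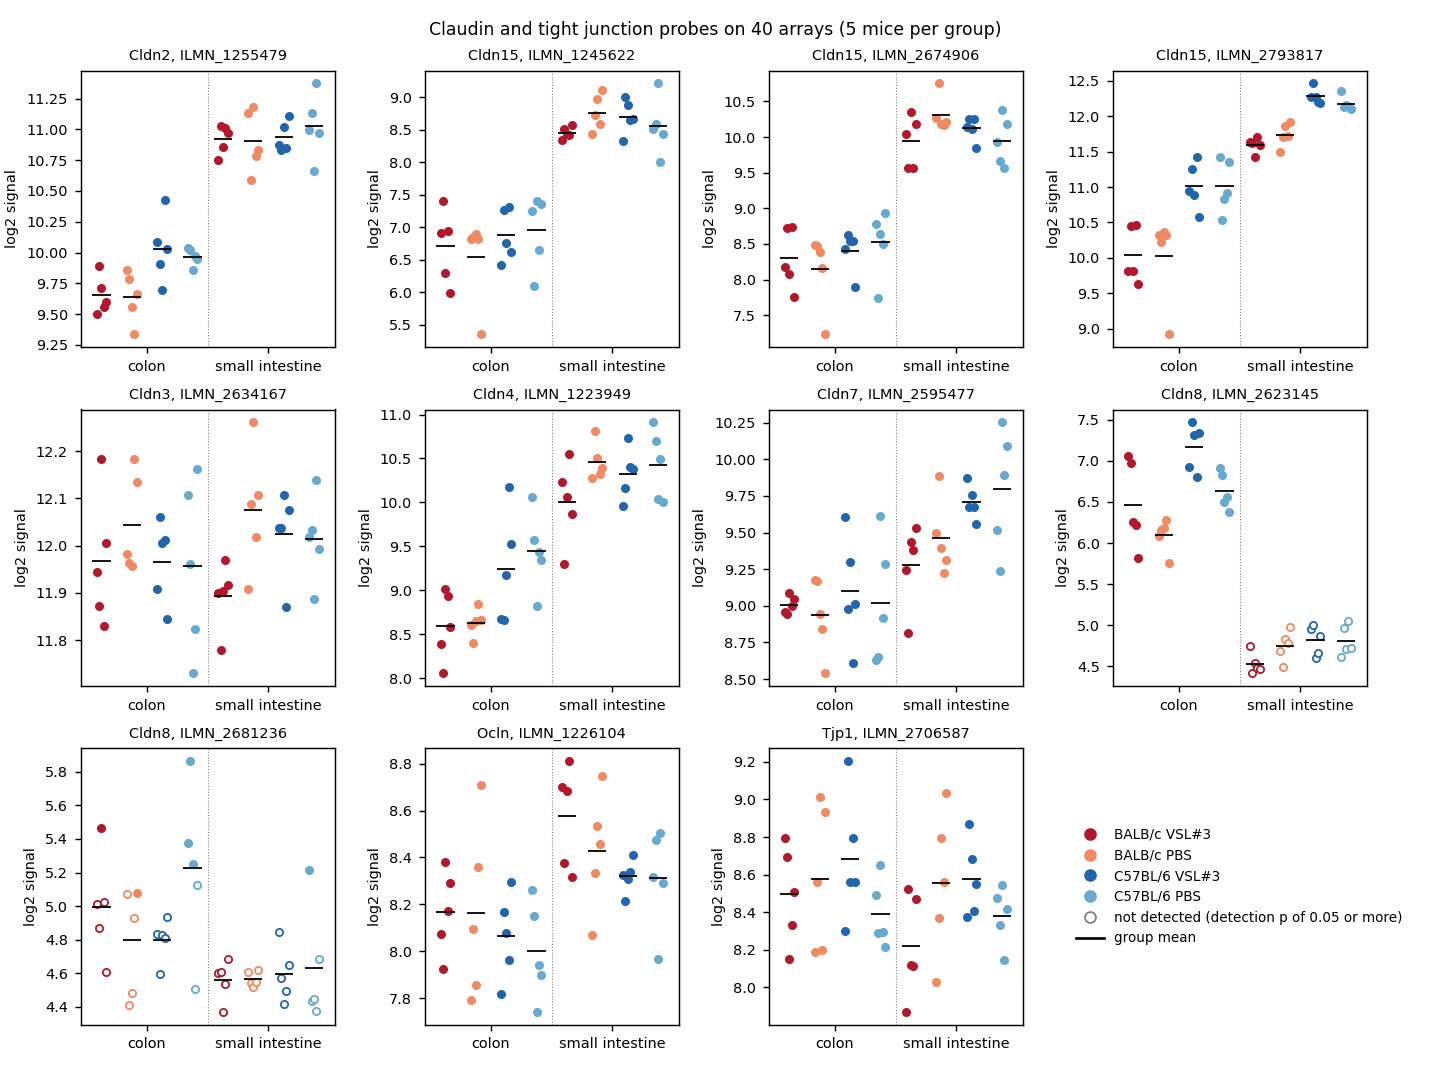
Log2 signal of each of the 11 probes (vertical axis, its own range in each panel) on every array, in the 4 colon groups and the 4 small intestine groups. Filled points were detected, open points were not, and black lines are group means of 5 mice. Cldn2, Cldn4 and the 3 Cldn15 probes sit lower in colon, Cldn8 probe ILMN_2623145 is filled in colon and open in small intestine, and the panels of Cldn3 and Tjp1 overlap in all groups.

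The first question was whether VSL#3 changed these genes in colon. No probe passed the test: 0 of 11 were called in BALB/c and 0 of 11 in C57BL/6, beside 0% of all 13385 probes tested in either strain (limma, Benjamini-Hochberg adjusted p under 0.05). At an unadjusted p under 0.05, 0 of 11 probes passed in BALB/c, where 3.68% of all probes did, and 2 of 11 in C57BL/6, where 6.26% of all probes did. The group ranges overlapped for all 11 probes in both strains, where 0.635% and 0.859% of all probes did not overlap. The median difference between VSL#3 and PBS over the 11 probes was 0.02 in BALB/c and 0.01 in C57BL/6, against -0.0056 and -0.0037 over all probes.

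Cldn8, a sealing claudin, had the smallest p in colon of both strains. In C57BL/6 colon, probe ILMN_2623145 gave log2 signals of 6.92, 7.47, 7.32, 6.81 and 7.34 in mice on VSL#3, against 6.91, 6.83, 6.50, 6.56 and 6.37 in mice on PBS. Of the 5 VSL#3 arrays, 4 lay above every PBS array, the first of them by a narrow margin, and mouse 4 lay within the PBS range. The means were 7.17 ± 0.29 with VSL#3 and 6.64 ± 0.23 with PBS (SD, n = 5 each), a difference of 0.54 (SE 0.20, 95% interval 0.12 to 0.96), with an unadjusted p of 0.0141 and an adjusted p of 0.718 in limma. In BALB/c colon, the same probe gave 7.06, 6.97, 6.26, 6.22 and 5.81 with VSL#3, against 6.08, 6.15, 6.18, 6.28 and 5.76 with PBS. Mice 1 and 2 on VSL#3 lay above the PBS arrays, and the other 3 lay within their range. The difference was 0.37 (SE 0.20, 95% interval -0.05 to 0.79, limma adjusted p = 0.999). Mice 4 and 5 of this VSL#3 group are the arrays with the high acinar signal named above, and without those 2 arrays and the C57BL/6 PBS array the difference was 0.67 (limma adjusted p = 0.997). Averaged over the strains, the Cldn8 difference was 0.45 (SE 0.14, unadjusted p = 0.0043, limma adjusted p = 0.902), and it was the 1 probe of 11 past an unadjusted p of 0.05, where 5.09% of all probes were. The difference between the strains' responses was -0.17 (95% interval -0.76 to 0.42). For VSL#3 minus PBS in colon, 13 of 14 acinar probes were above 0 in BALB/c (median 1.90) and 0 of 14 in C57BL/6 (median -1.20), and adipocyte probes were above 0 in 0 of 5 in both strains (medians -0.23 and -0.73), none called. Their part in the Cldn8 differences was not tested.

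The second Cldn8 probe did not follow the first in C57BL/6 colon. ILMN_2681236 was detected on 0 of 5 VSL#3 arrays and 3 of 5 PBS arrays there, and its difference was -0.43 (unadjusted p = 0.0457, limma adjusted p = 0.789). Against the detection floor, its PBS signal was at least 1.07-fold higher. In BALB/c colon it was detected on 1 of 5 arrays in each group and its difference was 0.20. The difference between the strains' responses for this probe was 0.63 (unadjusted p = 0.0382), the 1 of 11 past that threshold, where 4.63% of all probes were.

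None of the other genes was called in colon. The pore-forming claudins gave differences of 0.02 in BALB/c and 0.06 in C57BL/6 for Cldn2, and of -0.12 to 0.16 for the 3 Cldn15 probes over both strains. Cldn3 had the tightest estimate, with 95% intervals of -0.29 to 0.13 in BALB/c and -0.20 to 0.22 in C57BL/6. Cldn4 gave -0.04 and -0.20, and Cldn7 gave 0.07 and 0.08 in BALB/c and C57BL/6 colon. Ocln gave 0.01 in BALB/c and 0.06 in C57BL/6, with intervals of -0.32 to 0.33 and -0.26 to 0.39. Tjp1 gave -0.08 in BALB/c and 0.30 in C57BL/6, with an unadjusted p of 0.119 in the second. Cldn15 probe ILMN_1245622 had the widest intervals, at -0.50 to 0.82 in BALB/c and -0.74 to 0.58 in C57BL/6.

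**Figure D2:**
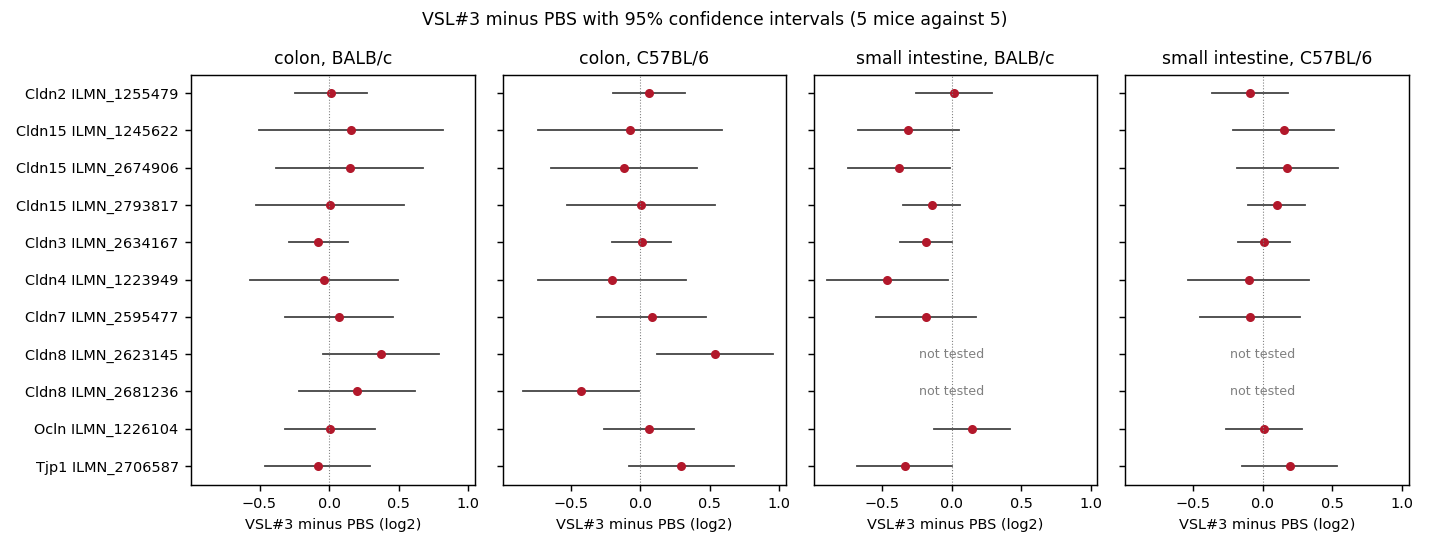
Differences VSL#3 minus PBS (horizontal axis, log2) of the 11 probes in each tissue and strain, with 95% confidence intervals from 5 mice against 5. Points lie between -0.46 and 0.54, no point passed the adjusted test, and the Cldn8 probes were not tested in small intestine, where they failed the detection filter.

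In small intestine the same question could be asked of 9 probes, since both Cldn8 probes failed the detection filter. None was called in either strain (0 of 9 and 0 of 9 by limma, beside 0% of 13035 probes). At an unadjusted p under 0.05, 2 of 9 passed in BALB/c, where 6.22% of all probes did, and 0 of 9 in C57BL/6, where 4.45% did. In BALB/c, 7 of 9 probes had a lower mean with VSL#3, and the median difference over the 9 was -0.18, against 0.01 over all probes. In C57BL/6, 3 of 9 had a lower mean and the median was 0.01. Averaged over the strains, 0 of 9 passed the unadjusted threshold, where 4.66% of all probes did. The group ranges overlapped for all 9 probes in both strains, where 0.821% of all probes did not overlap in BALB/c and 0.683% in C57BL/6.

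Cldn4, a sealing claudin, had the smallest p in BALB/c small intestine. Its probe gave 10.23, 9.30, 10.06, 10.55 and 9.86 in mice on VSL#3, against 10.28, 10.81, 10.51, 10.32 and 10.39 in mice on PBS. Of the 5 VSL#3 arrays, 4 lay below every PBS array, and mouse 4 lay within the PBS range. The difference was -0.46 (SE 0.21, 95% interval -0.90 to -0.03), with an unadjusted p of 0.0381 and a limma adjusted p of 0.779. Cldn15 probe ILMN_2674906 differed by -0.38 (unadjusted p = 0.0444) and the other Cldn15 probes by -0.31 and -0.14. Tjp1 gave 7.87, 8.52, 8.12, 8.12 and 8.47 with VSL#3, against 8.03, 8.37, 8.79, 8.56 and 9.03 with PBS, a difference of -0.34 (unadjusted p = 0.0526, limma adjusted p = 0.801). The lowest VSL#3 array of Tjp1 lay below the PBS range, and the other 4 lay in its lower part.

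The C57BL/6 small intestine gave differences between -0.10 for Cldn4 and 0.19 for Tjp1. Tested as the difference between the strains' responses, Tjp1 gave -0.53 (SE 0.23, unadjusted p = 0.0325) and Cldn15 probe ILMN_2674906 gave -0.55 (unadjusted p = 0.0371), with limma adjusted p-values of 0.873 and 0.891. Of 9 probes, 2 passed the unadjusted threshold in that test, where 5.46% of all probes did. Smooth muscle markers differed in the opposite sense: 15 of 15 probes were above 0 for VSL#3 minus PBS in BALB/c small intestine (median 0.18) and 0 of 15 in C57BL/6 (median -0.17), none of them called. Their summed signal over 16 probes was 27213 to 37354 with VSL#3 and 22955 to 30665 with PBS in BALB/c small intestine, against values of 32785 to 37598 with VSL#3 and 31551 to 48840 with PBS in C57BL/6. Adipocyte markers had larger medians: 5 of 5 probes were above 0 in BALB/c small intestine (median 0.74) and 0 of 5 in C57BL/6 (median -0.33), none called, with a summed signal of 1762 to 5508 with VSL#3 and 979 to 4979 with PBS in BALB/c. The part of these markers in the member differences was not tested.

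Colon and small intestine of the same mouse were compared next. Of the 11 probes, 8 were called in BALB/c VSL#3 mice, 7 in BALB/c PBS mice, 7 in C57BL/6 VSL#3 mice and 9 in C57BL/6 PBS mice. Over all 14009 probes, 37.8%, 37.2%, 39.3% and 39% were called in the same order (limma on each mouse's colon minus small intestine difference). Higher in colon were 2, 1, 1 and 2 members, where 20.6%, 21.1%, 22.1% and 22% of all probes were. All of these are Cldn8 probes, which passed the detection filter through colon, so the filter favoured this direction. Lower in colon were 6, 6, 6 and 7 members, where 17.2%, 16.1%, 17.2% and 17.1% of all probes were. The tissues did not overlap for 6, 7, 5 and 5 members, where 24.8%, 22.5%, 23.2% and 22.5% of all probes did not. Cldn8 probe ILMN_2623145, kept through colon alone, is among them in each group. The pore-forming claudins Cldn2 and Cldn15 and the sealing claudin Cldn4 were lower in colon in all 4 groups, Cldn8 was higher in colon in all 4, and Cldn3 and Tjp1 were called in none.

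Cldn2 was 1.88 to 2.41 times lower in colon. In C57BL/6 mice on PBS its probe gave 10.04, 10.02, 9.86, 9.97 and 9.95 in colon, against 11.00, 11.13, 10.66, 11.38 and 10.97 in small intestine. The tissues did not overlap in any of the 4 groups. The differences were -1.27 in BALB/c on VSL#3, -1.27 in BALB/c on PBS, -0.91 in C57BL/6 on VSL#3 and -1.06 in C57BL/6 on PBS (SE 0.12 each), with limma adjusted p-values of at most 2.74e-06. In the order of the 8 group means, the lowest small intestine group lay 0.87 above the highest colon group with no overlap, and every other pair of neighbours overlapped.

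Cldn15, the other pore former, had the probe with the largest fall of the members in all 4 groups. In BALB/c mice on PBS, probe ILMN_2674906 gave 8.49, 8.48, 8.38, 8.17 and 7.23 in colon, against 10.27, 10.76, 10.18, 10.16 and 10.21 in small intestine. All 5 colon arrays lay well under all 5 small intestine arrays. Across the 4 groups the 3 probes gave differences between -2.22 and -1.16, all called, with no overlap between tissues in any group. These are 2.24-fold to 4.66-fold lower signals in colon, and the 3 probes pointed the same way in each group.

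Cldn4 was lower in colon, with differences of -1.40 in BALB/c on VSL#3, -1.83 in BALB/c on PBS, -1.08 in C57BL/6 on VSL#3 and -0.98 in C57BL/6 on PBS (SE 0.16 each, limma adjusted p at most 4.85e-05). In BALB/c mice on PBS the probe gave 8.60, 8.40, 8.65, 8.85 and 8.66 in colon, against 10.28, 10.81, 10.51, 10.32 and 10.39 in small intestine. The tissues did not overlap in BALB/c and overlapped in C57BL/6, where the highest colon array on VSL#3 reached 10.17 and the lowest small intestine array 9.96. Cldn7 was lower in colon in 3 groups, with differences of -0.53 in BALB/c on PBS, -0.61 in C57BL/6 on VSL#3 and -0.78 in C57BL/6 on PBS. In BALB/c on VSL#3 it differed by -0.27 (limma adjusted p = 0.0506).

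Cldn8 was higher in colon. Probe ILMN_2623145 was detected on no small intestine array, so only a bound on its fold can be given. The bound was taken against the lowest signal of any probe detected on each array (detection p under 0.05) or the probe's own value, whichever was higher. Its colon signal was at least 2.48-fold higher in BALB/c on VSL#3, at least 1.89-fold higher in BALB/c on PBS, at least 3.93-fold higher in C57BL/6 on VSL#3 and at least 2.76-fold higher in C57BL/6 on PBS. The limma adjusted p-values were at most 4.99e-07, but the probe entered the fit through colon alone, so they are no separate support for the difference. The dim probe ILMN_2681236 was called higher in colon in BALB/c on VSL#3 (detected on 1 and 0 of 5 arrays) and in C57BL/6 on PBS (3 and 1 of 5), and these calls were lost in 4 and 1 of the 5 fits that left out 1 mouse.

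Cldn3, Tjp1 and Ocln differed least between the tissues. Cldn3 gave differences between -0.06 and 0.07, with every 95% interval within -0.24 and 0.25. Its 20 colon arrays ran from 11.73 to 12.18 and its 20 small intestine arrays from 11.78 to 12.26. Tjp1 gave 0.28, 0.02, 0.11 and 0.01 in BALB/c VSL#3, BALB/c PBS, C57BL/6 VSL#3 and C57BL/6 PBS mice, with limma adjusted p-values of 0.0724 or more. Ocln was lower in colon in BALB/c on VSL#3 (-0.41, limma adjusted p = 0.00387) and in C57BL/6 on PBS (-0.31, limma adjusted p = 0.0226), and differed by -0.27 in BALB/c on PBS and -0.26 in C57BL/6 on VSL#3 without a call. The C57BL/6 PBS call for Ocln was lost with median scaling (-0.23, limma adjusted p = 0.0996), with each tissue normalised alone (-0.18, 0.176), with tissues as independent groups (-0.31, 0.0957) and without mouse 2, 4 or 5.

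**Figure D3:**
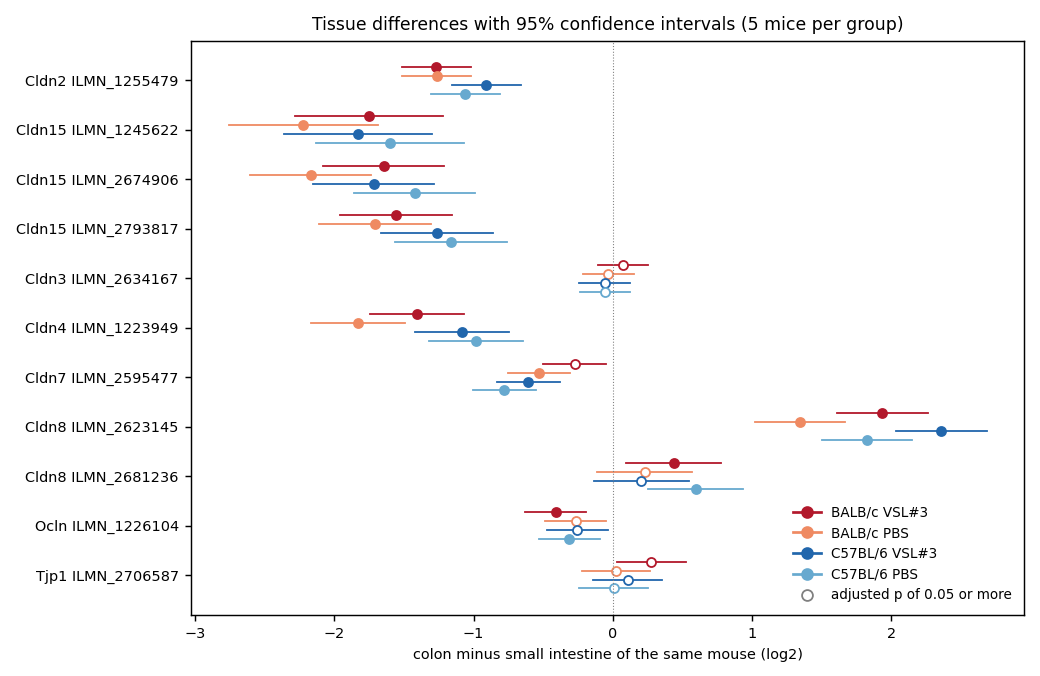
Colon minus small intestine differences (horizontal axis, log2) of the 11 probes in the 4 groups of 5 mice, with 95% confidence intervals. Filled points passed a limma adjusted p of 0.05 and open points did not. Cldn2, the Cldn15 probes and Cldn4 lie left of 0 in all 4 groups, Cldn8 probe ILMN_2623145 lies right of 0, and Cldn3 lies at 0.

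Markers of some cell types differed between the tissues as well. Over all probes, 20.6% to 22.1% were called higher in colon and 16.1% to 17.2% lower. Smooth muscle markers were called higher in colon for 14, 14, 15 and 14 of 15 probes in BALB/c VSL#3, BALB/c PBS, C57BL/6 VSL#3 and C57BL/6 PBS mice, with median differences of 1.04 to 1.28. Their summed signal was 58264 to 89539 on colon arrays and 22955 to 48840 on small intestine arrays. Of the smooth muscle probes, 1 for Synm was detected on no BALB/c array and on no colon array of C57BL/6 mice on VSL#3. All 14 acinar probes were above 0 in each group, with 14, 2, 2 and 2 called. T cell markers were called lower in colon for 3, 4, 3 and 3 of 5 probes (medians -1.93 to -1.16), with a summed signal of 207.19 to 534.26 on colon arrays and 533.50 to 1446 on small intestine arrays. B cell markers were called lower for 0, 0, 4 and 4 of 9 probes (medians -0.66 to -0.26), adipocyte markers for 4, 1, 4 and 1 of 5 (medians -1.54 to -0.22) and endothelial markers for 3, 1, 2 and 1 of 10 (medians -0.20 to 0.18). The summed acinar signal was 16461 to 198544 on colon arrays and 482.04 to 767.88 on small intestine arrays, where Amy2a5, Cpb1 and Try4 were detected on none. Epithelial markers went both ways, with 11 to 13 of 21 probes called higher and 4 or 5 called lower in colon, and their summed signal ran from 97699 to 141368 on colon arrays and from 97950 to 128470 on small intestine arrays. The part of these shifts in the claudin differences was not tested.

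The promoters of Cldn2, Cldn15 and Cldn4 are shown because these genes were lower in colon in all 4 groups, with that of Cldn3, which was called in none. RefSeq promoter windows (GRCm38.p6) were found for 7 of the 8 genes, and the 250 bases upstream of the annotated start are printed 5′ to 3′ on the gene's strand. Capitals mark matches, on either strand, to the motifs searched: the HNF1 core GTTAAT, the CDX core TTTATG, the GATA core AGATAA and the E-box CAGGTG. The windows are Cldn2 at chrX:139800558-139800807 (plus strand), Cldn15 at chr5:136967619-136967868 (plus strand), Cldn4 at chr5:134946935-134947184 (minus strand) and Cldn3 at chr5:134985964-134986213 (plus strand).
Cldn2: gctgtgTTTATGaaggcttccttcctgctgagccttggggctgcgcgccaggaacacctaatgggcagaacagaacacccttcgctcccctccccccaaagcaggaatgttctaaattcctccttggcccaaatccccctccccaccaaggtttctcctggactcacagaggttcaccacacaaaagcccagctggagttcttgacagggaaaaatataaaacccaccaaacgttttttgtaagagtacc
Cldn15: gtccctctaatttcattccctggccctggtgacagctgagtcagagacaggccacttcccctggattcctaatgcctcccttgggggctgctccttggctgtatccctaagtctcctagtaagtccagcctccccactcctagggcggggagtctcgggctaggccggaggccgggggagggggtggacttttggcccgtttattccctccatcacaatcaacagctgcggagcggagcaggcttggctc
Cldn4: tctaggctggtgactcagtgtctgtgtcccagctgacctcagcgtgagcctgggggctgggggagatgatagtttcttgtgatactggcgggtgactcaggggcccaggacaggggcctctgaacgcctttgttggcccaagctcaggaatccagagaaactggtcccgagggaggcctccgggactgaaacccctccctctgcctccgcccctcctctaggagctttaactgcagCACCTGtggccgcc
Cldn3: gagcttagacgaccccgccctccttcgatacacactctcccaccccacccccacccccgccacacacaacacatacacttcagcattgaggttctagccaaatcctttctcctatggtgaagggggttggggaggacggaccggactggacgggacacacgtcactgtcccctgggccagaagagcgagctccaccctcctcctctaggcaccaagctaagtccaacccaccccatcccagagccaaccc
Cldn2 held 1 match, a CDX core that begins 244 bases upstream of the start, and Cldn4 held 1, an E-box on the opposite strand that begins 14 bases upstream. Cldn15 and Cldn3 held none of the 4 motifs in these windows. Of all 32851 windows of the same length, 10.8% held a CDX core, 17.2% an E-box, 6.43% an HNF1 core and 9.99% a GATA core. Of the windows not printed, Tjp1 held none of the motifs, and Cldn7 and Ocln, with 2 windows each, held 2 E-boxes in the second and none in the first. No window was matched for Cldn8. G and C made up 52% of the Cldn2 window, 60.8% of those of Cldn15 and Cldn3, and 62% of that of Cldn4.

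The strains were compared within each tissue and treatment. In colon, 2 of 11 probes were called in VSL#3 mice, where 9.81% of all probes were, and 2 of 11 in PBS mice, where 10.3% were. All of these were lower in BALB/c, as were 5.08% of all probes in VSL#3 mice and 5.1% in PBS mice: Cldn15 probe ILMN_2793817 in both treatments, Cldn8 probe ILMN_2623145 in VSL#3 mice and Cldn4 in PBS mice. In small intestine, 1 of 9 probes was called in VSL#3 mice (11.4% of all probes) and 1 of 9 in PBS mice (9.82%). Both calls were Cldn15 probe ILMN_2793817, again lower in BALB/c, as were 5.72% and 5.25% of all probes. The strains did not overlap for 1 and 3 of 11 members in colon of VSL#3 and PBS mice (9.17% and 8.79% of all probes), and for 2 and 1 of 9 in small intestine (10.4% and 8.4%).

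Cldn4 in colon of PBS mice gave 8.60, 8.40, 8.65, 8.85 and 8.66 in BALB/c, against 10.06, 9.57, 8.82, 9.43 and 9.35 in C57BL/6. Mouse 3 of the C57BL/6 group lay within the BALB/c range, and the other C57BL/6 mice lay above it. The difference was -0.81 (SE 0.26, limma adjusted p = 0.0447), a 1.76-fold lower signal in BALB/c. The call was lost in 9 of the 10 fits that left out 1 mouse, whose adjusted p-values ran from 0.0188 to 0.131. It held only without mouse 3 of the C57BL/6 group, an array high in acinar markers (-0.97, limma adjusted p = 0.0188). In VSL#3 mice the difference was -0.65 (limma adjusted p = 0.124). In small intestine Cldn4 gave -0.33 in VSL#3 mice and 0.03 in PBS mice, neither called.

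Cldn8 in colon of VSL#3 mice averaged 6.47 ± 0.53 in BALB/c and 7.17 ± 0.29 in C57BL/6 (SD, n = 5 each), a difference of -0.71 (SE 0.20, limma adjusted p = 0.0271). In PBS mice the means were 6.09 ± 0.20 and 6.64 ± 0.23, with no overlap between the strains and a difference of -0.54 (limma adjusted p = 0.0972). Without the 3 colon arrays high in acinar markers, 2 of them in the BALB/c VSL#3 group, the VSL#3 difference was -0.41 (limma adjusted p = 0.271). It was also lost in 6 of the 10 fits that left out 1 mouse: mouse 2, 3 or 5 of the C57BL/6 group, or mouse 3, 4 or 5 of the BALB/c group. Acinar markers moved with this comparison: all 14 probes were higher in BALB/c VSL#3 colon, with a median difference of 3.14 and none called. Cldn2 in colon gave -0.38 in VSL#3 mice and -0.33 in PBS mice (limma adjusted p = 0.0628 and 0.108).

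The Cldn15 probes differed from each other in the strain comparison. In small intestine of PBS mice, ILMN_2793817 gave 11.50, 11.70, 11.86, 11.71 and 11.91 in BALB/c, against 12.36, 12.13, 12.15, 12.14 and 12.10 in C57BL/6, with no overlap. Its small intestine difference was -0.69 in VSL#3 mice (SE 0.10, limma adjusted p = 3.34e-05) and -0.44 in PBS mice (SE 0.10, limma adjusted p = 0.00425). In colon it was -0.98 in VSL#3 mice and -0.98 in PBS mice (SE 0.26 each, limma adjusted p = 0.0156 and 0.0143), again with no overlap. The VSL#3 colon call was lost without mouse 4 of the C57BL/6 group (-0.88, limma adjusted p = 0.05005) and without the 3 arrays high in acinar markers (-0.99, limma adjusted p = 0.0556), and the PBS small intestine call with median scaling (-0.46, limma adjusted p = 0.0603).

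The other Cldn15 probes were called between strains in no tissue or treatment. In small intestine of PBS mice, ILMN_1245622 gave 0.21 and ILMN_2674906 gave 0.37, so both had higher means in BALB/c. ILMN_2674906 gave 10.27, 10.76, 10.18, 10.16 and 10.21 in BALB/c, against 9.93, 9.66, 10.38, 9.57 and 10.19 in C57BL/6. In small intestine of VSL#3 mice they gave -0.25 and -0.18, and in colon between -0.41 and -0.11. On each array the signal of ILMN_2793817 was set against the mean of the other Cldn15 probes, a contrast chosen after the values were seen. That within-array difference was lower in BALB/c, by -0.84 in VSL#3 colon, -0.59 in PBS colon, -0.47 in VSL#3 small intestine and -0.73 in PBS small intestine (log2, BALB/c minus C57BL/6). The same arrays picked out this probe, so a test of the contrast on them could not decide the question, and no p-value is given. Where each probe lies on the Cldn15 transcript is not given in the sources used here, so the strain difference is stated for the probe and not for the gene.

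**Figure D4:**
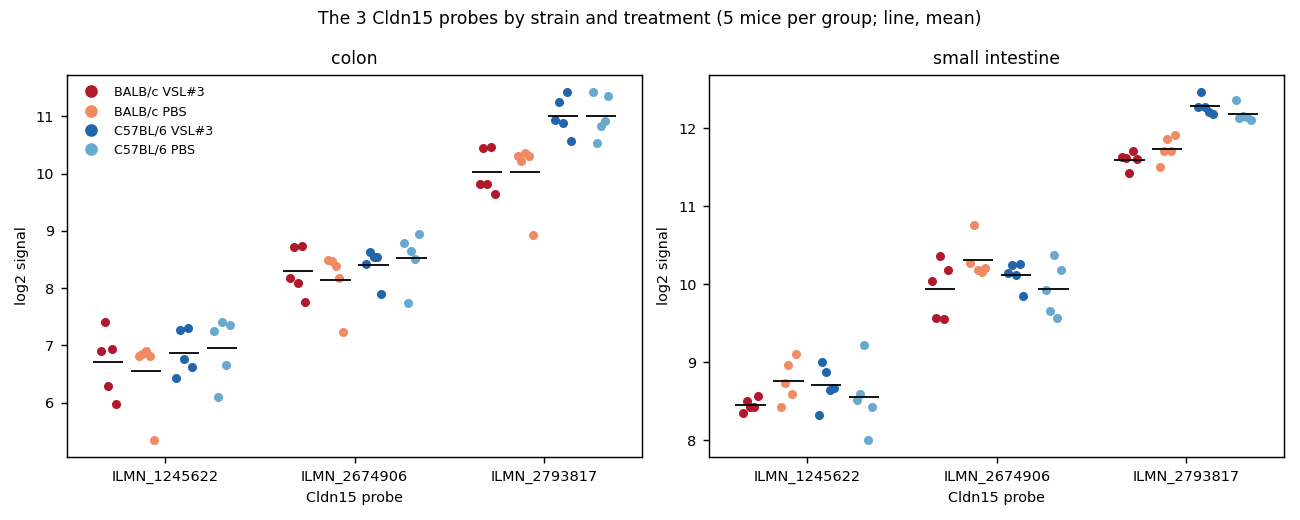
Log2 signal (vertical axis) of the 3 Cldn15 probes (horizontal axis) in colon and small intestine, by strain and treatment, with every array as a point and group means of 5 mice as lines. BALB/c points lie below C57BL/6 points at ILMN_2793817 in both tissues and overlap them at the other probes. Levels should be compared within a probe only.

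Smooth muscle markers differed between the strains in PBS mice, where 6 of 15 probes were called lower in BALB/c colon (median -0.36) and 7 of 15 in small intestine (median -0.48). In VSL#3 mice the counts were 1 of 15 in colon and 0 of 15 in small intestine. Over all probes, 5.08% and 5.1% were called lower in colon of VSL#3 and PBS mice, and 5.72% and 5.25% in small intestine. In either direction the shares were 9.81% and 10.3% in colon, and 11.4% and 9.82% in small intestine. Epithelial markers were called lower in BALB/c for 3 and 1 of 21 probes in colon of VSL#3 and PBS mice, and for 4 and 2 of 21 in small intestine. B cell markers were called higher in BALB/c colon for 1 of 9 probes in VSL#3 mice (median 0.51) and 5 of 9 in PBS mice (median 0.94), and T cell markers for 1 of 4 (median 0.74) and 3 of 4 (median 1.09). In PBS colon the summed B cell signal was 768 to 1464 in BALB/c and 514.85 to 657.88 in C57BL/6, and the summed T cell signal 345.93 to 534.26 in BALB/c and 212.33 to 265.68 in C57BL/6. In small intestine B cell markers were called higher for 0 and 1 of 8 probes in VSL#3 and PBS mice, and T cell markers for 0 of 5 in both. Adipocyte markers had a median of 0.37 in VSL#3 and -1.33 in PBS small intestine, none called. Their part in the member differences was not tested.

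Whether the tissue difference itself depended on the strain was tested in PBS mice. None of the 11 probes was called, where 2.75% of all probes were, and 3 of 11 passed an unadjusted p under 0.05, where 14.4% of all probes did. Cldn4 came nearest: its colon minus small intestine difference was -1.83 in BALB/c and -0.98 in C57BL/6, a difference of -0.85 (SE 0.23, unadjusted p = 0.00147, limma adjusted p = 0.052). The limma adjusted p was 0.0446 with the stricter detection filter, 0.048 with 1 probe per gene and 0.0296 with the code letter as a block. Counting these and the fits that left out 1 mouse, Cldn4 was called in 4 of 19 settings. Its limma adjusted p reached 0.282 in the others. Cldn15 probe ILMN_2674906 gave -0.75 (limma adjusted p = 0.225). The other of the 3 was Cldn8 probe ILMN_2623145, for which no value is given because its small intestine signal lay at background.

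Other junction genes on the array were taken as lists of claudins, other tight junction membrane proteins, scaffold and polarity proteins, adherens junction proteins and desmosome proteins, 52 genes with 96 probes. Of these, 36 genes were tested in colon, 37 in small intestine and 39 between tissues. Beyond the members, the claudins detected on every array were Cldn9, Cldn12 and Cldn23. Cldn13 was detected on no array, and neither Cldn6, Cldn14, Cldn16, Cldn17 nor Cldn19 passed the detection filter in either tissue.

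No listed probe passed the test for VSL#3 in any strain or tissue (0 of 63 in colon and 0 of 66 in small intestine, limma, beside 0% of all probes). The probes with the smallest p were Magi1 (-0.42) and Ybx3 (0.35) in BALB/c colon, Patj (0.43) and Perp (-0.50) in C57BL/6 colon, Marveld3 (-0.37) and Cxadr (-0.32) in BALB/c small intestine, and Perp (-0.54) and Patj (-0.45) in C57BL/6 small intestine. At an unadjusted p under 0.05, 4 and 1 of 63 passed in colon of BALB/c and C57BL/6, where 3.68% and 6.26% of all probes did, and 4 and 2 of 66 in small intestine, where 6.22% and 4.45% did.

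Between strains, several listed genes were called. F11r, which encodes the junctional adhesion molecule JAM-A, was lower in BALB/c, with differences of -1.23 in VSL#3 colon, -1.05 in PBS colon, -1.15 in VSL#3 small intestine and -1.05 in PBS small intestine, and no overlap in any. For Patj, a polarity scaffold, probe ILMN_2490495 was detected on 5 of 5 C57BL/6 and 0 of 5 BALB/c arrays in each of the same comparisons, so it entered the fits through C57BL/6 alone and only bounds are given. Its signal was at least 2.03-fold lower in BALB/c in VSL#3 colon, at least 1.49-fold in PBS colon, at least 2.65-fold in VSL#3 small intestine and at least 2.21-fold in PBS small intestine. The other Patj probes were called in none of them: ILMN_2705732 gave 0.39, 0.17, 0.32 and -0.26, and ILMN_2708580 gave 0.22, -0.09, -0.35 and -0.05, so the difference is stated for 1 probe. Probes of Ybx3, which encodes the ZO-1-associated factor ZONAB, were also lower in BALB/c. ILMN_2705078 gave -0.97 in PBS colon, and ILMN_2629657 gave -1.80 and -2.16 in VSL#3 and PBS small intestine. In VSL#3 colon no Ybx3 probe was called, and ILMN_2629657 averaged 6.79 in BALB/c and 7.02 in C57BL/6. In PBS colon it averaged 6.44 and 6.94, and this probe too was called lower in BALB/c. The differences are stated for these probes and not for the gene. Higher in BALB/c colon were Cldn23, by 0.64 in VSL#3 mice and 0.62 in PBS mice, and Marveld3, by 0.74 and 0.60. In BALB/c colon of VSL#3 mice, Pard6a was higher (0.38) and Magi1 lower (-0.57). In all, 3 probes were called higher and 4 lower in VSL#3 colon, 2 and 4 in PBS colon, 0 and 6 in VSL#3 small intestine and 0 and 5 in PBS small intestine. Over all probes, 9.81%, 10.3%, 11.4% and 9.82% were called in these comparisons in either direction, so both directions together lay near or under the general share. Lower in BALB/c were 5.08%, 5.1%, 5.72% and 5.25% of all probes. The lower calls, of 63 listed probes in colon and 66 in small intestine, lay near those shares in colon and somewhat above them in small intestine. Each count includes the Patj probe that entered the fits through C57BL/6 alone, so nothing is drawn from the direction of the calls.

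Between tissues, 10 to 13 of the 68 listed probes were called higher in colon and 15 to 20 lower, over the 4 groups, where 20.6% to 22.1% of all probes were higher and 16.1% to 17.2% lower. Ildr1, which encodes an angulin of tricellular contacts, had the most shifted probes. ILMN_2734693 was higher in colon by 3.84 in BALB/c VSL#3, 3.66 in BALB/c PBS, 3.69 in C57BL/6 VSL#3 and 3.75 in C57BL/6 PBS mice. Probe ILMN_2857684 of the same gene gave 4.15, 3.94, 3.23 and 3.54 in the same groups. A dimmer Ildr1 probe, ILMN_1238808, overlapped between the tissues. It ran from 5.23 to 6.40 on colon arrays and from 4.62 to 6.12 on small intestine arrays. After Ildr1, the largest rises were Marveld3 in BALB/c (1.00 on VSL#3 and 0.79 on PBS), Cldn12 in C57BL/6 on VSL#3 (0.67) and Vcl in C57BL/6 on PBS (0.52). Lower in colon were Patj (-0.94), Nectin3 (-0.75) and Pkp2 (-0.64) in BALB/c on VSL#3, and Tjap1 (-0.96), Nectin3 (-0.94) and Patj (-0.78) in BALB/c on PBS. In C57BL/6 on VSL#3 the largest falls were Ybx3 probe ILMN_2629657 (-1.04) and Patj probes ILMN_2708580 (-1.03) and ILMN_2705732 (-1.01). On PBS they were the same Ybx3 probe (-1.28), Patj (-1.14) and Tjap1 (-0.91). Ybx3 probe ILMN_2629657 was the only listed probe called in the test of tissue by strain in PBS mice (1.65, limma adjusted p = 7.61e-04).

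Arrays of a group varied around their mean, and the members did not vary as 1 block. Over the 20 colon arrays, taken as deviations from the group mean, the 3 Cldn15 probes correlated at 0.87 to 0.91 with each other (Pearson), and at -0.66 to -0.56 with Ocln. Mouse 5 of BALB/c PBS colon was far below its group for all 3 Cldn15 probes (5.35, 7.23 and 8.92). It was also the highest of that group for Ocln (8.71), and the part of this array in the correlations was not tested. Cldn4 and Cldn7 gave -0.64 and Cldn3 and Ocln 0.53. In small intestine Cldn3 and Ocln gave 0.62, Cldn2 and Cldn15 probe ILMN_2674906 gave -0.73, and Tjp1 and Cldn15 probe ILMN_1245622 gave 0.72. The Cldn15 probes correlated at only -0.20 to 0.41 with each other there, against the 0.87 or more in colon. These are descriptions over 20 arrays that share the quantile normalisation.

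By the same measure, the genes whose pattern was most like a member were named for each tissue. In colon these were Plcd3 (r = 0.78) and Napa (0.77) for Cldn2, Zfp524 (0.87) and Pip4k2c (0.85) for Cldn3, Whrn (0.85) and Rnf10 (0.80) for Cldn4, and Slc44a4 (0.90) and Pold1 (0.89) for Cldn7. Pip4k2b (0.80) and Epsti1 (0.78) were nearest Cldn8, Tango2 (0.89) and Gnpda1 (0.88) nearest Ocln, and Srsf2 (0.90) and Lias (0.90) nearest Tjp1. The Cldn15 probes had the closest neighbours of all members in colon: Kcnk6 (0.94) and Rbp4 (0.92), Plet1 (0.94) and Retnlb (0.94), and Slc12a8 (0.94) and Ffar2 (0.92).

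In small intestine the nearest were Nrep (0.82) and Gnaz (0.79) for Cldn2, Adar (0.89) and Naaladl1 (0.81) for Cldn3, Tuft1 (0.89) and Agpat2 (0.83) for Cldn4, and Aifm1 (0.88) and Preb (0.87) for Cldn7. For the Cldn15 probes they were Zmynd8 (0.87) and Txn1 (0.87), Dok4 (0.90) and Nprl2 (0.89), and Ndfip2 (0.85) and Ifitm6 (0.84). Sult1d1 (0.87) and Odf3b (0.86) were nearest Ocln, and Zcwpw1 (0.89) and Srsf2 (0.88) nearest Tjp1. Srsf2, which encodes a splicing factor, was the gene named for the same member in both tissues.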

How the data were processed

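Illumina MouseRef-8 BeadChips were hybridised with 750 ng cRNA made from 500 ng total RNA, per the labels' protocols. The deposited intensity table holds 1 linear intensity per probe and array, with 21.4% to 25.1% of values below 0, so a background had already been subtracted. The scanner software and the authors' normalization are not given in the sources used here. Only limma is listed in the submitters' processing notes. The deposited detection columns hold 1 minus the detection p-value, a fraction from 0 to 1. The authors' normalized log2 table served as an alternative only: 10 of its 40 columns, those of VSL#3 colon, best matched arrays of the other strain in the intensity table, and these were left out.

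Probes were named from the platform annotation: 23978 of 25697 have 1 symbol and 1719 have none. Symbols of 99.9% of them matched RefSeq. Background correction, quantile normalisation of all 40 arrays and log2 transformation used neqc (offset 16) in limma 3.58.1 under R 4.3.3. A probe was kept where its detection p was under 0.05 on at least 5 arrays of the fit. Within a tissue, limma was fitted to 20 arrays as 4 group means. Between tissues, it was fitted to each mouse's colon minus small intestine difference. Adjusted p-values (Benjamini-Hochberg) cover all kept probes, called means an adjusted p under 0.05, and intervals are 95%. The number of arrays limits the precision. The procedure was tested on simulated data.

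The members, gene lists, motifs and tests were chosen with earlier results of these data known. Every member probe is described. Of the other junction lists, the 3 probes called with the largest difference in each direction are named, or the 2 with the smallest p where none was called. For likeness, the 2 genes with the highest r are named per member probe detected on all 20 arrays of a tissue.

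Colon and small intestine arrays were paired by the mouse code in the labels: over 20 mice, deviations of the same mouse from the 2 group means correlated at 0.188 on average and above 0.1 in 14. Mouse numbers shared between treatments or strains belong to different mice and were not taken as pairs. At most 3 of 5 such pairs correlated above 0.1, a count that alone cannot exclude a pairing. Alternatives were median scaling, tissues normalised alone, no background correction, no filter, a stricter filter (0.01), 1 probe per gene, fewer groups, a replicate block, the code letter A or B as block or alone, array weights, the authors' normalized table and each mouse left out. Leaving out the 3 colon arrays high in acinar markers was added after seeing the data. Genes of the lists without a probe in the annotation, such as Cldn5, Cgn and Afdn, were not analysed here.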

Additional observations from a re-analysis of the deposited data

Results flagged for a closer look

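In groups of 5, an array was picked out where its gap to the nearest other array exceeded Dixon's 95% critical value for the group's range. Of 76 groups checked (10 probes in colon and 9 in small intestine by 4 groups each, the probes detected on every array), 6 were picked out, where chance gives 5%. In BALB/c PBS colon, mouse 5 was low for all 3 Cldn15 probes: 5.35 for ILMN_1245622, 7.23 for ILMN_2674906 and 8.92 for ILMN_2793817. In C57BL/6 VSL#3 colon, mouse 5 was low for ILMN_2674906 at 7.89. In BALB/c PBS small intestine, mouse 2 was high for ILMN_2674906 at 10.76. In C57BL/6 PBS small intestine, mouse 1 was high for ILMN_2793817 at 12.36. All 6 are values of Cldn15, which has 3 of the 10 probes checked in colon and 3 of the 9 in small intestine. The values of mouse 5 of BALB/c PBS colon come from the same array and from probes that correlated closely in colon, so the 6 are not independent picks. The cause was not tested.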

How the results depend on the processing

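No alternative called a member for VSL#3 in any strain or tissue. The replicate block within a tissue changed no call: it left 2 members called between strains in colon of either treatment, 1 in small intestine of either treatment and 0 for VSL#3, and gave -0.81 for Cldn4 in PBS colon. With no replicate block between tissues, 8, 7, 7 and 8 members were called in BALB/c VSL#3, BALB/c PBS, C57BL/6 VSL#3 and C57BL/6 PBS mice. In colon, the strain comparison of PBS mice called 1 member in place of 2 with no background correction, no filter, mice of code letter A alone or the authors' normalized table, and 0 with letter B alone. That of VSL#3 mice called 1 in place of 2 with only the groups compared or with letter A or letter B alone, and 0 without the 3 colon arrays high in acinar markers. Letter A in PBS mice ended the calls of both Cldn4 and Cldn15 probe ILMN_2793817 (limma adjusted p = 0.0953 and 0.16). Letter B in VSL#3 mice ended those of both Cldn8 probe ILMN_2623145 and the same Cldn15 probe (limma adjusted p = 0.0713 and 0.361). The 1 call in each of these fits was of another member probe. In small intestine, the strain comparison called 0 in place of 1 with median scaling, letter A or letter B alone in PBS mice, and with letter B alone in VSL#3 mice. The test of tissue by strain called 1 in place of 0, Cldn4, at a detection p under 0.01, with 1 probe per gene and with the code letter as a block. Leaving out 1 mouse gave 1 to 2 in PBS colon, 1 to 3 in VSL#3 colon and 0 to 1 for tissue by strain. Cldn15 probe ILMN_2793817 in VSL#3 colon lost its call without mouse 4 of the C57BL/6 group (limma adjusted p = 0.05005). With letter B alone, Cldn8 turned to -0.0063 for VSL#3 in BALB/c colon (ILMN_2623145), and to -0.25 for the difference of the VSL#3 effects in colon (ILMN_2681236). The fits by code letter hold fewer mice. Other causes were not tested. Median scaling moved the median of all probes to 0.11 for VSL#3 in BALB/c small intestine and to 0.13 between strains in VSL#3 small intestine, and normalising each tissue alone moved it to between 0.12 and 0.14 between tissues. Both Cldn8 probes lay at background in small intestine, so no VSL#3 or strain difference of Cldn8 could be measured there.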
